A study of Rattus norvegicus with 9 samples.

Results

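The MHC class II genes described here were Cd74, RT1-Da, RT1-Db1, RT1-Ba, RT1-Bb, RT1-DMa, RT1-DMb and Ciita, 8 of the 41801 genes in the count tables. They were chosen by gene symbol, and all 8 were found. Their UMIs (unique molecular identifiers, each of which stands for 1 captured RNA molecule) were followed through the stages of B cell development and through dendritic cells, macrophages, monocytes and other marrow cells. The cells came from the proximal tibia of Sprague-Dawley rats, 6 to 8 weeks old, that had all received a 3 mm circular osteotomy and a 4 mm skin wound on the foot of the same side. In the TO libraries (TO 2d 0h, TO 2d 4h, TO 4d 4h, TO 4d 24h) no shock waves were given. In the TOE libraries (TOE 2d 4h, TOE 2d 24h, TOE 4d 4h and TOE 4d 24h) radial shock waves (rESWT) were given over the cut bone in sessions on day 2 and day 4, and tissue was taken 4 h or 24 h after the session. TO 2d 0h was taken just before the day 2 session. Each condition had 1 library of 10x Genomics 3′ single-cell RNA sequencing, and the design text gives 9 rats for 9 samples without saying which rat entered which library. No rat without osteotomy was among the samples, and TO 2d 24h was not analysed here.

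As background, MHC class II molecules display peptides from engulfed or internalised protein to CD4+ T cells. Each classical molecule is a pair of an alpha and a beta chain. In the rat, RT1-Da and RT1-Db1 encode the chains of RT1-D, the counterpart of human HLA-DR, and RT1-Ba and RT1-Bb those of RT1-B, the counterpart of HLA-DQ. The invariant chain, encoded by Cd74, fills the groove of new molecules and guides them to the endosome. There the remnant of the invariant chain is exchanged for peptide by DM, whose chains are encoded by RT1-DMa and RT1-DMb. Ciita, the class II transactivator, is the coactivator on which expression of these genes depends, and it acts through a complex that binds the X and Y boxes of their promoters. In marrow the genes are known for high expression in dendritic cells and in B cells late in maturation, and for loss of Ciita in plasma cells.

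The proximal promoters are shown because the X and Y boxes are the letters on which Ciita acts. Sequences were taken from RefSeq, build GRCr8, whereas the submitters' processing notes list the rat build mRatBN7.2, so positions are those of GRCr8 only. Of the 8 genes, 6 had a promoter entry. The 150 bases that end just before the start site are given for the 5 genes on chromosome 20, each on the strand of the gene. Capitals mark ACAGATG, used here as the core of the X box, and ATTGG, the core of the Y box, with CCAAT as its reverse complement.
RT1-Da (chr20:4515265-4515414, plus strand): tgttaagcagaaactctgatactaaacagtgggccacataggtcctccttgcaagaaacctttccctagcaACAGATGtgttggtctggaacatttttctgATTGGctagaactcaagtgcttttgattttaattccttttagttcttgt
RT1-Db1 (chr20:4560163-4560312, minus strand): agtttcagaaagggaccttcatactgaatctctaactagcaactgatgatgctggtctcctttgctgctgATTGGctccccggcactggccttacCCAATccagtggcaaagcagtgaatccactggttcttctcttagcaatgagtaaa
RT1-Ba (chr20:4576907-4577056, plus strand): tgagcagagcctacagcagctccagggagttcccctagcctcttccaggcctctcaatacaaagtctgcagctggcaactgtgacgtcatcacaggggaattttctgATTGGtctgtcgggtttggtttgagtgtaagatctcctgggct
RT1-Bb (chr20:4604119-4604268, minus strand): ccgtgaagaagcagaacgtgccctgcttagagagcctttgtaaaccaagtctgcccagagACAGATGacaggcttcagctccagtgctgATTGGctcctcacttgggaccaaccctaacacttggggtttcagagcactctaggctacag
RT1-DMa (chr20:4712336-4712485, minus strand): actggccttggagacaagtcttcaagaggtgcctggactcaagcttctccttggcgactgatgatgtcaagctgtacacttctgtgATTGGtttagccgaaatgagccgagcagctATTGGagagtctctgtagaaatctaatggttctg

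The 5 genes lay within a short stretch of chromosome 20, and ATTGG stood on the gene strand of each. Counted in bases before the start site, ATTGG began at 49 in RT1-Da, 80 in RT1-Db1, 43 in RT1-Ba, 61 in RT1-Bb, and 64 and 34 in RT1-DMa. ACAGATG was found in RT1-Da, beginning at 79, and in RT1-Bb, beginning at 90. Over the full windows of 300 bases, searched on both strands, ACAGATG was in 2 of the 6 member promoters and in 5.29% of all 33469 promoters. ATTGG was in 6 of 6 and in 37.5% of all. ACAGATG followed on the same strand by ATTGG within 35 bases was in 2 of 6, RT1-Da and RT1-Bb, and in 0.20% of all. The longer TGATTGG, which contains ATTGG and was chosen after the sequences had been seen, was in 5 of 6 and in 7.06% of all. A match describes these letters only. X boxes with other letters were not searched for, so a promoter without ACAGATG is not taken to lack one. RT1-DMb and Ciita had no entry.

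Library depth was similar across conditions. The libraries held 95954800 to 144146202 UMIs, and 11931 to 16246 cells of each passed the filter, 110490 of 116711 barcodes in all, with a median of 4522 to 5668 UMIs per cell. A pair of libraries shared 36 to 95 barcodes, and 1445 distinct barcodes occurred in 2 or more libraries. Class II genes took no part in the clustering, so that the cell classes below do not rest on them. Classes are called "-like" after markers, and immunoglobulin markers Ighm and Ighd were not among the listed genes. Levels were expressed as CPM, in which the UMIs of all genes in a class and library are scaled to the same sum. Since a class is summed, fewer expressing cells and less RNA per cell cannot be told apart in a CPM. The B cell clusters differed in share by library. Of the immature/mature B-like cells, cluster 1 held 69.7% to 88.7% in TO 2d 0h, TO 4d 24h and TOE 2d 24h, cluster 14 held 46.5% to 85.4% in the 4 libraries taken at 4 h, and cluster 13 held 94.1% in TOE 4d 24h. Cluster 13 also held 1097 cells in TOE 2d 4h, where cluster 14 held 1021, and 26.4% in TO 2d 0h and 26.3% in TO 4d 4h. TOE 4d 24h stood apart for Cd74: it had the lowest CPM in 14 of the 16 classes with at least 20 cells in all 8 libraries. These included neutrophil-like cells (30.9 against 68.4 to 112 CPM) and pro-B-like cells (19.8 against 36.6 to 99.9 CPM). The classes came from the same library, and such a count was not made for all genes. RT1-DMa was lowest in TOE 4d 24h in 9 of the 16 classes, RT1-Da, RT1-Db1 and RT1-Ba in 6 each, RT1-DMb in 5 and RT1-Bb in 4. Ciita was lowest there in 3 and highest in 5.

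Among the classes ranked here, Cd74 was highest in conventional DC-like cells and in immature/mature B-like cells, and lowest in megakaryocyte-like cells (4 libraries). Plasma cell-like cells, under 20 in each library, were not ranked. Of the clusters left unnamed, which are called after their leading gene, only a single cluster, given below, was ranked. Left out were the Bglap-led (3664 cells), Sync-led (2080 cells), Car1-led (1144 cells), C1qa-led (527 cells), Il23a-led (390 cells) and Nrn1-led clusters (16 cells). In conventional DC-like cells (582 cells) Cd74 ranged from 3168 to 6040 CPM over the 8 libraries, with a median of 5251 CPM. In immature/mature B-like cells (13041 cells) it ranged from 2651 to 4961 CPM, with a median of 4375 CPM. The ranges of these classes overlapped, and Cd74 was higher in conventional DC-like cells in 6 of 8 libraries (exact two-sided sign-flip permutation test, p = 0.0547, adjusted p = 0.232). Plasmacytoid DC-like cells followed with a median of 1560 CPM (434 to 1929), macrophage-like cells with 1535 CPM (1135 to 2507), and an Adgre4-led cluster, left unnamed, with 1409 CPM (1046 to 1793, 7 libraries). A second step down led to monocyte-like cells at 370 CPM (131 to 506) and small pre-B-like cells at 298 CPM (111 to 467). The remaining named classes had medians from 28.8 CPM in megakaryocyte-like to 232 CPM in HSPC-like cells, a class in which 144 cells led by Siglech and Flt3 held 1587 CPM over all libraries and 420 cells led by Flt3 and Meis1 held 96.0 CPM.

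No pair of neighbours in this order differed at an adjusted p under 0.05. A single step at the smallest exact p that 8 libraries allow would not pass the adjustment, so this does not show that neighbours were alike. The clearest steps were from immature/mature B-like to plasmacytoid DC-like cells, where Cd74 was lower in plasmacytoid DC-like cells in 8 of 8 libraries (exact p = 0.00781, the smallest that 8 libraries allow, adjusted p = 0.133), and from the Adgre4-led cluster to monocyte-like cells, in 7 of 7 libraries (exact p = 0.0156, adjusted p = 0.133). Neutrophil-like cells, used here as a reference class of low Cd74, held a median of 87.7 CPM (30.9 to 112), and pro-B-like cells held 66.8 CPM. The median in pro-B-like cells was thus no higher than in the reference class. Whether neutrophil-like cells themselves expressed class II was not tested. Other class II genes did not all follow Cd74 in neutrophil-like cells: RT1-Db2 was at 56.3 CPM over all libraries (25.2 to 87.6), more than the 34.3 CPM of plasmacytoid DC-like cells.

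**Figure D1:**
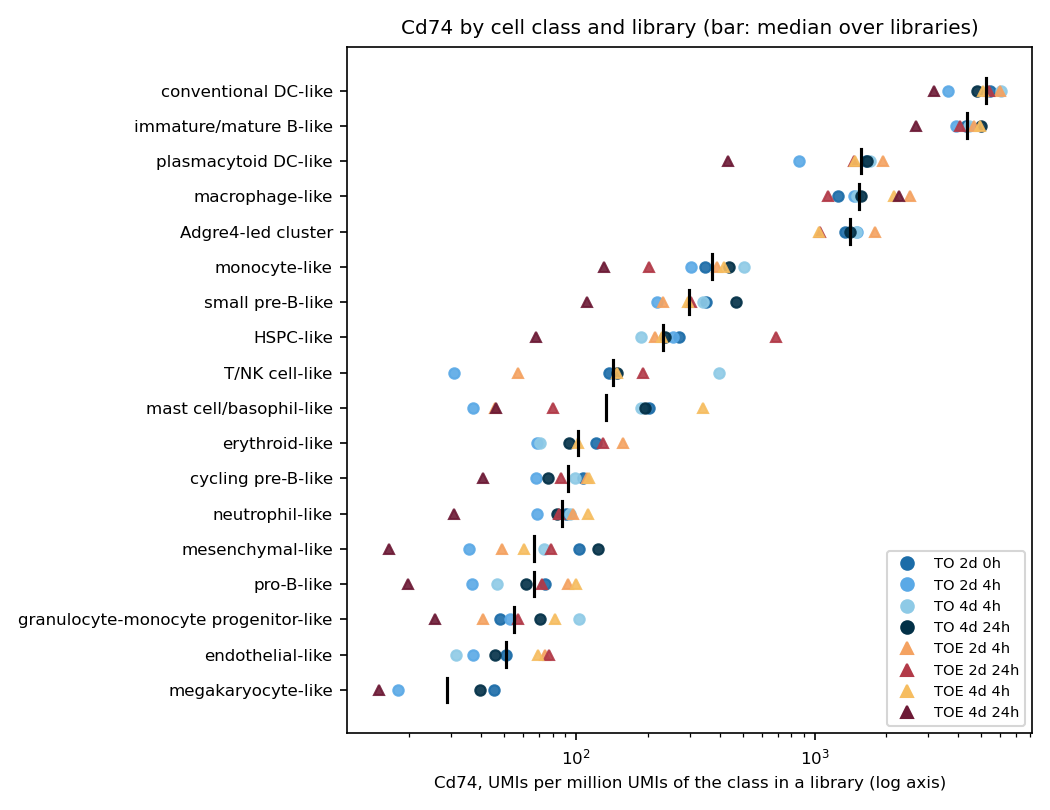
Cd74 by cell class. The horizontal axis is CPM on a log scale, each point is 1 library with at least 20 cells of the class (circles TO, triangles TOE), and the vertical bar is the median over libraries. Conventional DC-like and immature/mature B-like cells sit at the top, with medians of 5251 and 4375 CPM, and the dark triangle of TOE 4d 24h is the lowest point in both, at 3168 and 2651 CPM.

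Shares of cells with a Cd74 UMI at a fixed depth put the B-like classes higher than the CPM did. After each cell was thinned to 2000 UMIs, 92.1% of conventional DC-like and 93.2% of immature/mature B-like cells held a Cd74 UMI, against 68.5% of plasmacytoid DC-like, 44.4% of macrophage-like, 32.2% of small pre-B-like and 18.7% of monocyte-like cells. The reference share in neutrophil-like cells was 9.30%, at a median of 5852 UMIs per cell before thinning, and pro-B-like cells were at 9.07%, at a median of 7860 UMIs. Unthinned, the shares were 98.5% for conventional DC-like, 94.5% for immature/mature B-like, 46.4% for small pre-B-like and 26.0% for neutrophil-like cells. Thinning left out 5 of 582 conventional DC-like, 1628 of 13041 immature/mature B-like, 3658 of 33365 small pre-B-like and 972 of 15071 neutrophil-like cells. Immature/mature B-like cells thus stood level with conventional DC-like cells, and small pre-B-like cells above monocyte-like cells, where the CPM had the other order, so no order is read between those classes. By library the share was 40.6% to 51.6% in macrophage-like and 40.3% to 80.5% in plasmacytoid DC-like cells, which overlapped, as did small pre-B-like (15.9% to 42.3%) and monocyte-like cells (9.37% to 23.9%). The median CPM of macrophage-like cells was close to that of plasmacytoid DC-like cells in the clustering used, but 2631 against 1575 CPM at Leiden resolution 2.

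Because classes differ in size, their shares of the class II UMIs over all recovered cells were another quantity. Immature/mature B-like cells, 11.8% of all cells, gave 34.6% of the UMIs of the 7 structural genes (all members but Ciita). Monocyte-like cells gave 18.8%, conventional DC-like cells 12.6% from 0.527% of the cells, macrophage-like cells 9.91%, and small pre-B-like cells 6.99% from 30.2% of the cells. Across libraries the share from immature/mature B-like cells ran from 28.5% to 40.9%, that from monocyte-like cells from 13.5% to 30.7%, from conventional DC-like cells from 8.05% to 16.8%, from macrophage-like cells from 3.60% to 16.7% and from small pre-B-like cells from 4.07% to 9.18%. Neighbours in this order overlapped, so the order is that of the pooled UMIs only.

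The classical chains followed Cd74 in most classes, whereas the DM chains did not. RT1-Da had medians of 2357 CPM in conventional DC-like cells (1437 to 4385), 778 CPM in immature/mature B-like cells (536 to 2208), 617 CPM in macrophage-like cells (455 to 1350) and 610 CPM in plasmacytoid DC-like cells (288 to 1283). RT1-Db1 had medians of 1687, 926, 442 and 289 CPM in the same classes, and RT1-Ba of 1490, 419, 276 and 305 CPM. RT1-Bb was captured least of the classical chains, with medians of 94.2, 70.7, 15.2 and 23.8 CPM. All 4 chains were thus highest in conventional DC-like cells. RT1-Db1 has a paralog, RT1-Db2, and how similar they are and how reads that fit both were counted was not tested, so values of either are uncertain.

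RT1-DMa and RT1-DMb, the peptide exchange chains, were ordered differently, with monocyte-like cells near the top. RT1-DMa had a median of 415 CPM in conventional DC-like (292 to 493), 410 CPM in the Adgre4-led cluster (366 to 446), 383 CPM in monocyte-like (324 to 486) and 327 CPM in macrophage-like cells (190 to 465). These ranges overlapped. In immature/mature B-like cells it was only 72.0 CPM (50.2 to 214), below every value in monocyte-like cells. RT1-DMb was ordered alike, with medians of 254 CPM in conventional DC-like, 168 CPM in monocyte-like and 73.4 CPM in immature/mature B-like cells. Lower in its order, 3 neighbour steps were in 8 of 8 libraries (exact sign-flip permutation test, p = 0.00781, adjusted p = 0.0443 over the neighbours of this gene only). They were granulocyte-monocyte progenitor-like (57.5 CPM) over HSPC-like cells (40.1 CPM, the mixed class described for Cd74), HSPC-like over mast cell/basophil-like cells (21.8 CPM), and neutrophil-like (17.5 CPM) over T/NK cell-like cells (7.72 CPM). Steps of other genes reached the same exact p with a higher adjusted p, such as conventional DC-like over immature/mature B-like cells for RT1-Ba (same test, adjusted p = 0.0664). The adjusted p therefore does not set the RT1-DMb steps above those.

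Relative to Cd74, the amount of each chain differed between classes. Over all libraries, monocyte-like cells held 114 RT1-DMa UMIs per 100 Cd74 UMIs (75.5 to 295 by library). Immature/mature B-like cells held 2.29 (1.14 to 4.31) and conventional DC-like cells 8.28 (6.16 to 11.4). The ranges of monocyte-like and immature/mature B-like cells did not overlap. Such ratios compare classes for the same pair of genes. They do not rank the genes themselves, since capture of different transcripts was not compared.

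Ciita, the transactivator, was low in counts and was highest in the same B and dendritic classes. It had medians of 58.8 CPM in conventional DC-like (47.6 to 101), 49.2 CPM in immature/mature B-like (34.3 to 69.7) and 26.9 CPM in plasmacytoid DC-like cells (10.6 to 96.5). In macrophage-like cells it was 6.91 CPM (4.32 to 23.2) and in monocyte-like cells 4.57 CPM (2.94 to 6.83), below every library of the immature/mature B-like and conventional DC-like classes. Neutrophil-like cells held 0.709 CPM (0.386 to 0.859). No neighbours in the Ciita order passed an adjusted p of 0.05 in the exact sign-flip permutation test, the lowest being 0.133. A single step at the smallest exact p that the libraries allow would not pass, so this does not show that neighbours were alike.

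**Figure D2:**
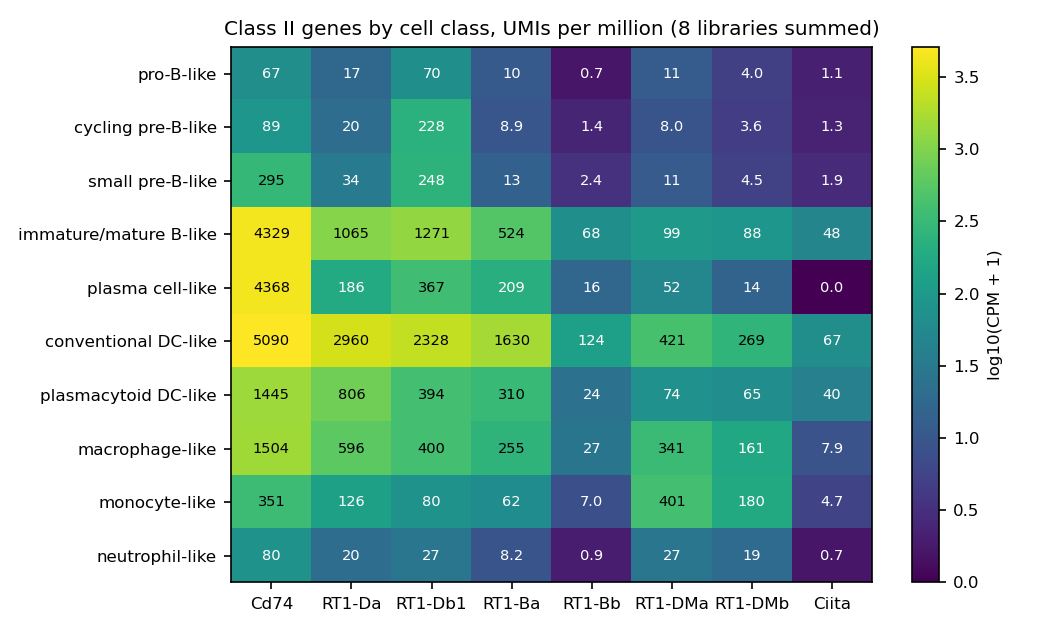
The 8 genes in 10 cell classes. Colour is log10 of CPM + 1 and the printed number is the CPM of all 8 libraries summed. The classical chains are brightest in the conventional DC-like and immature/mature B-like rows, and Cd74 in these and the plasma cell-like row. RT1-DMa stays bright in monocyte-like cells (401 CPM) and RT1-Db1 is raised in both pre-B rows (228 and 248 CPM).

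The first comparison asked how the class II genes change as B cell precursors mature, from pro-B-like to small pre-B-like cells. Cd74, RT1-Db1 and RT1-Bb rose, and the other 5 genes were not called. Cd74 was 19.8 to 99.9 CPM in pro-B-like cells and 111 to 467 CPM in small pre-B-like cells, with medians of 66.8 and 298 CPM. The groups did not overlap, and the log2 fold change was 2.30 ± 0.16 (SE, 8 libraries, edgeR adjusted p = 2.26e-09). RT1-Db1 was 51.6 to 111 CPM in pro-B-like and 168 to 372 CPM in small pre-B-like cells, again without overlap (log2 fold change 1.85 ± 0.07, edgeR adjusted p = 6.24e-12). RT1-Bb was near its floor, with medians of 0.666 and 2.10 CPM (log2 fold change 1.61 ± 0.33, edgeR adjusted p = 0.00049), and it had too few counts to be tested without TOE 4d 4h or with doublets kept, so that its call was lost there. RT1-Da differed by 0.79 ± 0.20 on the log2 scale (edgeR adjusted p = 0.0021), short of 2-fold, and Ciita by 0.84 ± 0.38 (edgeR adjusted p = 0.0623). Ciita was called with DESeq2 (1.08, adjusted p = 0.0446), with edgeR at Leiden resolutions 0.5 (1.08, adjusted p = 0.0374) and 2 (1.04, adjusted p = 0.0182), and with edgeR without TOE 2d 4h (1.29, adjusted p = 0.0096). RT1-Ba differed by 0.25 ± 0.17, RT1-DMa by -0.08 ± 0.15 and RT1-DMb by 0.05 ± 0.20. A call needed an edgeR adjusted p under 0.05 and a change of at least 2-fold, and 11.4% of the 13624 genes tested were called higher in small pre-B-like cells and 14.2% lower. The median log2 fold change was 0.81 over the members and 0.06 over all genes.

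RT1-Db1 moved at another point than Cd74. In cycling pre-B-like cells, the stage between these, RT1-Db1 was already at a median of 222 CPM (188 to 350), whereas Cd74 was at 92.9 CPM (40.8 to 114) with a range that overlapped that of pro-B-like cells. Over all libraries this gave 258 RT1-Db1 UMIs per 100 Cd74 UMIs in cycling pre-B-like cells (176 to 522 by library), against 84.3 in small pre-B-like cells (57.3 to 183) and 29.4 in immature/mature B-like cells (17.3 to 51.0). The cycling pre-B-like and immature/mature B-like ranges did not overlap. The RT1-Db1 level in neutrophil-like cells was 24.8 CPM (16.1 to 45.2), below every cycling pre-B-like library. RT1-Db2, its paralog, was at 24.2 CPM in cycling pre-B-like and 16.4 CPM in small pre-B-like cells over all libraries.

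From small pre-B-like to immature/mature B-like cells all 8 members rose, while 5.20% of the 13762 genes tested were called higher and 4.69% lower. Cd74 went from a median of 298 to 4375 CPM, with 2651 CPM as its lowest value in immature/mature B-like and 467 CPM as its highest in small pre-B-like cells (log2 fold change 3.93 ± 0.11, edgeR adjusted p = 1.05e-12). RT1-Ba was 4.61 to 29.8 CPM in small pre-B-like and 327 to 1032 CPM in immature/mature B-like cells (5.53 ± 0.13, edgeR adjusted p = 2.00e-13). RT1-Da was 9.17 to 76.7 CPM before and 536 to 2208 CPM after (5.27 ± 0.11, edgeR adjusted p = 6.96e-14). RT1-Bb changed by 4.89 ± 0.08, RT1-DMb by 4.34 ± 0.11 and RT1-DMa by 3.23 ± 0.12 on the log2 scale. RT1-Db1, which had been raised earlier, changed by 2.30 ± 0.11. None of these genes overlapped between the stages, and the share of all genes without overlap was not counted here. In small pre-B-like cells the medians of RT1-Ba (6.86 CPM) and RT1-Da (17.3 CPM) were below those of neutrophil-like cells (8.53 and 19.2 CPM). With the cells of all libraries pooled, the shares of cells with a UMI at 2000 UMIs went the other way, 2.19% and 4.76% against 1.35% and 3.16%. As medians over libraries these shares kept the order of the CPM, 1.22% and 2.89% against 1.39% and 3.07%. RT1-Da in small pre-B-like cells was 9.17 to 16.3 CPM at 4 h and 18.4 to 76.7 CPM at 0 h or 24 h. No single starting level is therefore read, and the sizes of the changes are not ranked. The median over the members was 4.52, and over all genes tested it was -0.04.

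Ciita rose at this step as well. It was 1.08 to 2.66 CPM in small pre-B-like and 34.3 to 69.7 CPM in immature/mature B-like cells (log2 fold change 4.70 ± 0.11, edgeR adjusted p = 2.25e-13). The share of cells with a Ciita UMI at 2000 UMIs was 0.339% in small pre-B-like and 8.31% in immature/mature B-like cells, with 0.119% in neutrophil-like cells. Among the regulators of class II (18 genes, including the X and Y box factors, interferon signalling and Irf and Spi1 factors) 1 was called at this step, Irf8, a factor of B and dendritic cells, which rose by 2.60 ± 0.07, a share near the 5.20% of all genes. Of the 18, 4 had risen at the earlier step, where 11.4% of all genes had, led by Socs1 (2.29 ± 0.12), a feedback inhibitor of cytokine signalling, Irf4 (1.75 ± 0.11) and Spi1 (1.60 ± 0.08). The regulators' median log2 fold change was 0.27 at the first step and 0.01 at the second.

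**Figure D3:**
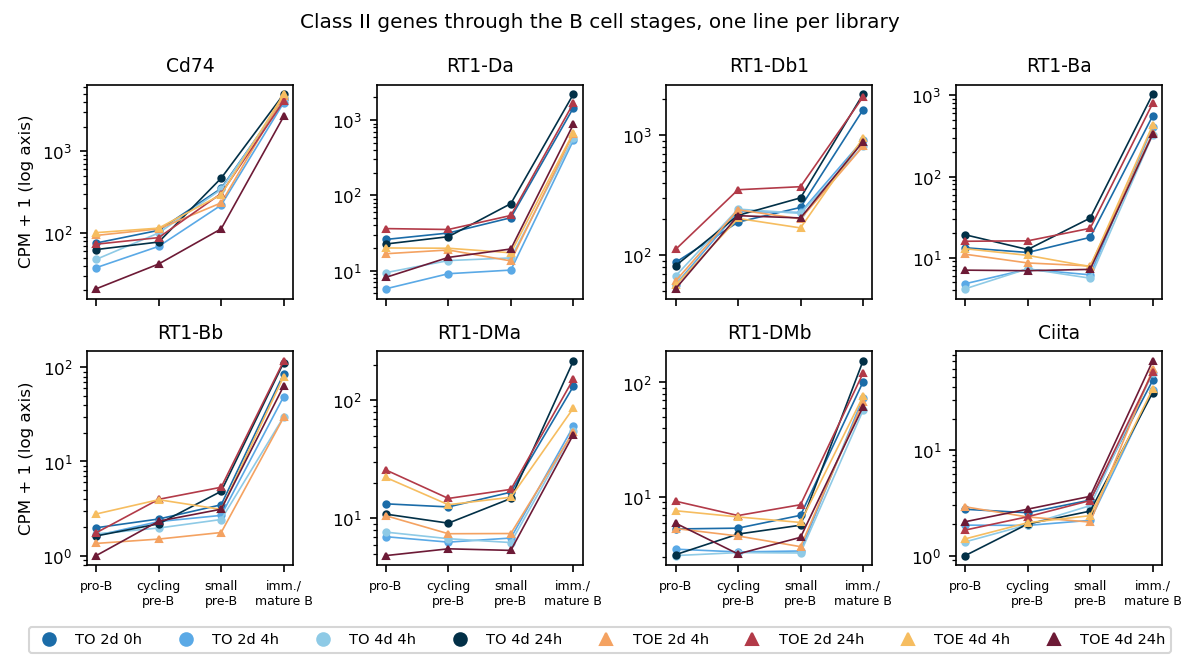
The 8 genes through the B cell stages. The vertical axis is CPM + 1 on a log scale, each line is 1 library (circles TO, triangles TOE). Every line of every gene goes up between small pre-B-like and immature/mature B-like cells, and RT1-Db1 is at 188 to 350 CPM in cycling pre-B-like cells, above its 51.6 to 111 CPM in pro-B-like cells.

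The other parts of the presentation pathway moved partly with these steps. RT1-DOa and RT1-DOb, the chains of DO, an inhibitor of DM in B cells, rose from small pre-B-like to immature/mature B-like cells by 4.73 ± 0.19 and 2.54 ± 0.18 on the log2 scale (edgeR adjusted p = 6.54e-11 and 1.97e-08), and RT1-Db2 was not called. Of 11 genes for peptide processing and class II turnover, 3 rose and none fell: Ifi30, a thiol reductase of the endosome (3.06 ± 0.16), and the cathepsins Ctsh (1.42 ± 0.08) and Ctss (1.18 ± 0.05). Of 5 genes of the costimulation list that were in the count tables, Cd86 (3.34 ± 0.13), Cd83 (1.98 ± 0.15) and Cd274 (1.82 ± 0.13), an inhibitory ligand, rose. Of 10 class I presentation genes, edgeR and DESeq2 each called 0 at this step, where 8 had an unadjusted edgeR p under 0.05 and the median log2 fold change was 0.30. At the earlier step Marchf1, a ubiquitin ligase that removes class II from the surface, had the largest change of the turnover genes (4.31 ± 0.14). Unlike the members, genes of these lists could enter the clustering.

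As a share of their UMIs, plasma cell-like cells held Cd74 at the level of immature/mature B-like cells and less of the other members. Their median was 14015.5 UMIs per cell against 3902 in immature/mature B-like cells, so the CPM given here do not compare amounts per cell. There were 74 such cells, under 20 in each library, so the values are of all libraries summed and were not tested. Cd74 was at 4368 CPM (exact 95% Poisson interval 4239 to 4499), close to 4329 CPM in immature/mature B-like cells. RT1-Da was at 186 CPM (161 to 215) against 1065 CPM, RT1-Ba at 209 CPM (182 to 240) against 524 CPM, RT1-Db1 at 367 CPM (330 to 406) against 1271 CPM, and RT1-DMb at 13.9 CPM (7.63 to 23.4) against 87.6 CPM. Ciita had 0 UMIs, against 47.9 CPM in immature/mature B-like cells. A floor of 3 counts, a one-sided limit unlike the intervals above, would be 2.99 CPM. The intervals cover counting error only. By library Cd74 ran from 2974 to 5556 CPM, with 1 to 17 cells each.

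Among dendritic cells, 7 of 8 members were called higher in the conventional than in the plasmacytoid class. In this comparison 8.30% of the 8635 genes tested were called higher and 8.58% lower. Cd74 was 3168 to 6040 CPM in conventional and 434 to 1929 CPM in plasmacytoid DC-like cells, without overlap (log2 fold change 1.95 ± 0.11, edgeR adjusted p = 3.27e-09). RT1-Db1 (2.69 ± 0.10), RT1-DMa (2.59 ± 0.08), RT1-Ba (2.52 ± 0.11), RT1-Bb (2.37 ± 0.18), RT1-DMb (2.15 ± 0.10) and RT1-Da (2.08 ± 0.09) were higher too. Ciita differed by 0.94 ± 0.27 (edgeR adjusted p = 0.0091), under 2-fold, and its ranges overlapped (47.6 to 101 and 10.6 to 96.5 CPM). It was called with DESeq2 (1.08), at Leiden resolution 0.5 (1.03) and without TO 2d 0h (1.07) or TOE 2d 24h (1.26). The median over the members was 2.26 and over all genes 0.03.

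The DO chains were also higher in conventional DC-like cells. RT1-DOa differed by 4.48 ± 0.40 and RT1-DOb by 3.44 ± 0.35, whereas RT1-Db2 was lower by -1.46 ± 0.24. Of 18 regulators, Spi1 was higher (2.08 ± 0.13), and Prdm1 (-2.21 ± 0.21) and Irf8 (-1.76 ± 0.09) were lower. Of 10 processing genes tested, Lgmn, an endosomal protease (2.71 ± 0.18), and Marchf1 (1.59 ± 0.16) were higher, and Ctsl was lower (-2.88 ± 0.10). Cd40 (1.91 ± 0.21) was the 1 of 4 genes of the costimulation list called. Nlrc5, the transactivator of class I genes (2.96 ± 0.36), and RT1-A2 (1.16 ± 0.09) were the 2 of 9 class I genes called. All are log2 fold changes with edgeR adjusted p under 0.05.

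The conventional DC-like cells were themselves uneven. A finer cluster of 71 cells with Clec9a among its leading genes, a receptor of the DC subset that cross-presents, held 12723 CPM of Cd74, 8136 CPM of RT1-Da and 172 CPM of Ciita over all libraries. A cluster of 274 cells led by RT1-Ba, RT1-Da and Tbc1d4 held 4681 CPM of Cd74 and 27.7 CPM of Ciita. A cluster of 218 cells led by St8sia1 and Flt3 held 3302 CPM of Cd74 and 83.6 CPM of Ciita. A cluster of 12 cells with Fscn1 and Ccl22 among its leading genes held 7177 CPM of Cd74 but 58.0 CPM of RT1-DMa. The order of Cd74 and of Ciita among these clusters was thus not the same, and with so few cells in each library none of it was tested.

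Against immature/mature B-like cells, conventional DC-like cells were called higher for 4 of 8 members, while 20.4% of the 11082 genes tested were called higher and 16.9% lower. RT1-DMa differed most, 292 to 493 against 50.2 to 214 CPM, without overlap (log2 fold change 2.41 ± 0.17, edgeR adjusted p = 8.32e-09). RT1-Ba (1.85 ± 0.11), RT1-DMb (1.85 ± 0.12) and RT1-Da (1.62 ± 0.12) were higher as well. Cd74 (0.40 ± 0.07), Ciita (0.67 ± 0.10), RT1-Bb (0.84 ± 0.19) and RT1-Db1 (0.92 ± 0.10) differed by less than 2-fold, with edgeR adjusted p from 1.28e-06 to 0.00086. RT1-Db1 was called without TO 2d 4h (1.01, edgeR adjusted p = 2.86e-07) and with doublets kept (1.05, edgeR adjusted p = 5.03e-06). Of 11 processing genes 8 were higher and Marchf1 was lower (-1.92 ± 0.17). Of the costimulation list, Cd86 was higher (1.63 ± 0.14), and Cd40 (-3.02 ± 0.15), the inhibitory ligand Cd274 (-2.14 ± 0.42) and Cd83 (-1.09 ± 0.15) were lower. The median was 1.27 over the members and -0.04 over all genes.

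From monocyte-like to macrophage-like cells the peptide-binding chains and Cd74 rose and the DM chains did not. Called higher were 5 of 8 members, with 12.0% of 13243 genes called higher and 7.80% lower. Cd74 was 131 to 506 CPM in monocyte-like and 1135 to 2507 CPM in macrophage-like cells, without overlap (log2 fold change 2.23 ± 0.23, edgeR adjusted p = 3.17e-06). RT1-Db1 (2.39 ± 0.28), RT1-Da (2.33 ± 0.30), RT1-Ba (2.14 ± 0.27) and RT1-Bb (1.65 ± 0.23) rose likewise. RT1-DMa was 324 to 486 CPM in monocyte-like and 190 to 465 CPM in macrophage-like cells, ranges that overlapped (-0.43 ± 0.12, edgeR adjusted p = 0.0092). RT1-DMb differed by -0.34 ± 0.09 and Ciita by 0.70 ± 0.26 (edgeR adjusted p = 0.0339), both under 2-fold. Macrophage-like cells of TOE 4d 24h numbered 25, and the same count of 5 was called without each library in turn. At Leiden resolution 2 the DM chains pointed the other way, RT1-DMa at 0.26 and RT1-DMb at 0.28, and Ciita was called higher in macrophage-like cells (1.65 ± 0.29, edgeR adjusted p = 0.00032). The median was 1.90 over the members and -0.02 over all genes.

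Of 11 processing genes, 5 were higher in macrophage-like cells, led by Lgmn (3.35 ± 0.10), Ctsd (2.00 ± 0.10) and Ctsl (1.82 ± 0.27), and Ctsh was lower (-1.13 ± 0.08). Of the regulators, Prdm1 was higher (2.22 ± 0.18) and Jak2 lower (-1.08 ± 0.10). Cd83 was higher (2.30 ± 0.20) and Cd80 lower (-1.60 ± 0.14). Of 10 class I presentation genes, 0 were called by edgeR and 0 by DESeq2, 8 had an unadjusted edgeR p under 0.05, and the median log2 fold change was 0.30. The log2 fold changes named here had edgeR adjusted p under 0.05.

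Genes with a pattern like that of Cd74 were looked for over 147 profiles, each a class in a library with at least 50 cells, and 16375 genes. Beyond the members, Pearson's r of log2(CPM + 1) was highest for Cd86 (0.856), a costimulatory ligand, Ifi30 (0.855), Il18 (0.845), a cytokine, Ly86 (0.812) and Ctss (0.799), the cathepsin that cuts the invariant chain. The members ranked from 0.944 for RT1-Da and 0.940 for RT1-Ba to 0.719 for RT1-DMb and 0.669 for RT1-DMa, with RT1-Bb at 0.895, RT1-Db1 at 0.863 and Ciita at 0.853. Profiles of 1 library share its depth and its free RNA, and profiles of 1 class share their cells, so r is a description only.

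The libraries taken at 4 h held fewer RT1-Da UMIs for each Cd74 UMI than those taken at 0 h or 24 h. In immature/mature B-like cells the ratio was 13.7 per 100 Cd74 UMIs in TO 2d 4h, 12.9 in TO 4d 4h, 14.1 in TOE 2d 4h and 13.8 in TOE 4d 4h. The other hours gave 33.6 in TO 2d 0h, 44.5 in TO 4d 24h, 41.1 in TOE 2d 24h and 33.0 in TOE 4d 24h. The 4 libraries of 4 h were all low and those of the other hours all high, in both arms and on both days. The groups did not overlap in conventional DC-like cells (36.5 to 41.9 against 58.7 to 81.0), plasmacytoid DC-like cells (28.5 to 38.4 against 68.2 to 77.1), macrophage-like cells (27.4 to 34.5 against 47.0 to 59.6), monocyte-like cells (26.8 to 30.3 against 32.0 to 56.2) and small pre-B-like cells (4.04 to 5.54 against 14.2 to 17.6). Neutrophil-like cells showed it as well, with 18.4 to 22.1 against 30.5 to 41.3. This pattern was noticed in the data, so it is a description with no test, and the part of the neutrophil-like values in it was not tested.

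The pattern was also present within each cluster of the immature/mature B-like cells. In clusters 1, 13 and 14 of the immature/mature B-like cells, the ratio was 7.79 to 12.3, 12.2 to 15.0 and 12.2 to 14.2 at 4 h. At the other hours it was 34.6 to 63.1, 22.1 to 27.9 and 47.0 to 54.4, the last over 3 libraries. Of the small pre-B-like clusters, 7 (3.36 to 12.9 against 14.2 to 25.6) and 8 (3.10 to 4.88 against 7.69 to 21.1) did not overlap, and cluster 0 did (5.19 to 14.0 against 7.14 to 16.9). Several of these values rested on few RT1-Da UMIs. Cluster 7 had 5 in TO 2d 4h, and cluster 8 had 4 in TOE 4d 24h and 8 in TOE 2d 24h. Cluster 0 had 4 in TOE 2d 4h and 3 in TOE 4d 24h. Neither separation nor overlap is therefore read for the small pre-B-like clusters.

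Other members shared the pattern in part. Of the 7 members other than Cd74, those lower per Cd74 UMI at 4 h without overlap were 6 in immature/mature B-like cells (all but Ciita), where 14.6% of all genes were, and 3 in macrophage-like cells (RT1-Da, RT1-Db1 and RT1-Ba), where 4.78% were. RT1-Da and RT1-Db1 were the 2 members in conventional DC-like (4.90% of all genes), plasmacytoid DC-like (3.70%) and monocyte-like cells (9.53%), and RT1-Da and RT1-Ba the 2 in small pre-B-like cells (2.74%). On the CPM scale fewer members separated in every class named here but small pre-B-like cells, with 2 on each scale. RT1-Da was lower at 4 h in immature/mature B-like cells (536 to 682 against 875 to 2208 CPM), 1 of 8 members, with 11.1% of all genes lower. RT1-Da (9.17 to 16.3 against 18.4 to 76.7 CPM) and RT1-Bb were lower in small pre-B-like cells, 2 of 8, with 12.7% of all genes lower. No member separated by CPM in conventional DC-like (6.87% of all genes), plasmacytoid DC-like (10.7%), macrophage-like (5.80%) or monocyte-like cells (11.6%).

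**Figure D4:**
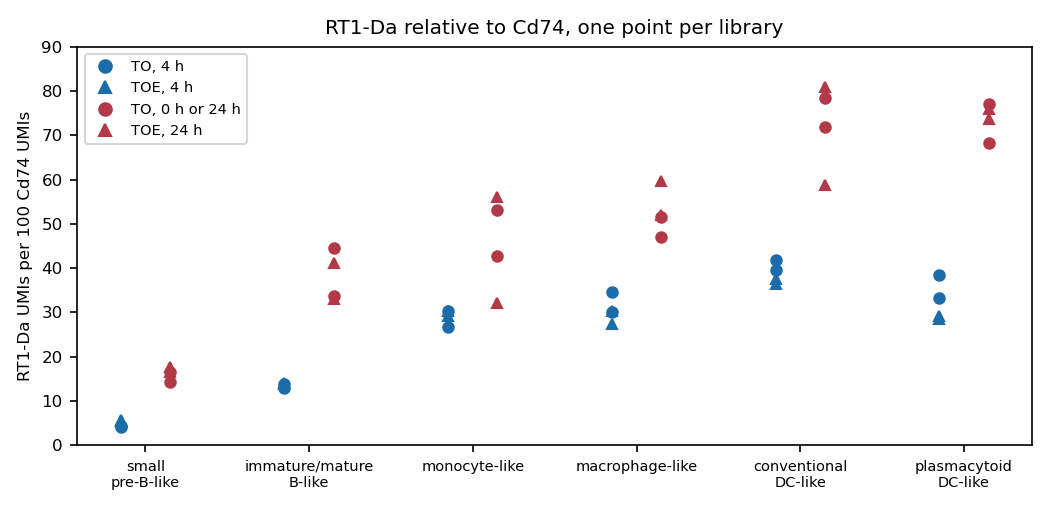
RT1-Da UMIs per 100 Cd74 UMIs by cell class. Each point is 1 library, with the 4 h libraries set apart from those of 0 h and 24 h, and circles for TO and triangles for TOE. In immature/mature B-like cells the 4 h libraries sit at 12.9 to 14.1 and the others at 33.0 to 44.5.

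The comparison of TOE with TO asked whether shock waves went with another level of class II at 2d 4h, 4d 4h and 4d 24h. Each pair was 1 library against 1, so there was no test, and the exact 95% intervals cover counting error only. For the 7 structural genes summed, the log2 ratio of TOE over TO in small pre-B-like cells was -0.02 in the 2d 4h pair (interval -0.07 to 0.02). It was -0.22 in the 4d 4h pair (interval -0.27 to -0.18), and -1.36 in the 4d 24h pair (interval -1.40 to -1.31). With doublets kept the last was -0.50 (interval -0.58 to -0.42). Immature/mature B-like cells had 0.15, 0.20 and -1.15, conventional DC-like cells 0.58, -0.21 and -0.76, monocyte-like cells 0.38, 0.03 and -0.82, and macrophage-like cells 0.66, 0.51 and 0.71 in the same order. The macrophage-like value at 4d 24h rested on 25 TOE cells and turned to -0.04 at Leiden resolution 0.5 and to -0.21 at resolution 2, and that at 4d 4h was 0.17 at resolution 2. The monocyte-like value at 4d 4h was -0.088 with class II genes kept among the variable genes, -0.021 with doublets kept, -0.051 at resolution 0.5 and 0.29 at resolution 2, so no direction is read from it.

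At 4d 24h, where TOE 4d 24h stood apart for Cd74, many members were past 2-fold, and so were many genes. In immature/mature B-like cells 6 of 8 members were past 2-fold, against 23.4% of all genes. RT1-DMa was at 50.2 CPM in TOE and 214 CPM in TO (log2 ratio -2.09), RT1-Ba at 330.1 and 1032 CPM (-1.64), RT1-DMb at 60.3 and 153 CPM (-1.34), RT1-Da at 875 and 2208 CPM (-1.34) and RT1-Db1 at 880.2 and 2192 CPM (-1.32). Ciita went the other way, with 69.7 CPM in TOE and 34.3 CPM in TO (1.02, 0.76 to 1.28). Within clusters, Cd74 was 2494 against 3725 CPM in cluster 13, which held 94.1% of the class in TOE and 8.33% in TO, and 5023 against 5068 CPM in cluster 1, which held 4.60% and 83.3%. RT1-Da was 696 against 824 CPM in cluster 13 and 3172 against 2270 CPM in cluster 1. Ciita was 72.7 against 79.0 CPM in cluster 13 and 19.6 against 28.6 CPM in cluster 1. Cluster 1 held 53 TOE cells and cluster 13 held 124 TO cells, so no direction of Ciita within a cluster is read.

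In the other classes at 4d 24h the members past 2-fold were mostly lower in TOE. Small pre-B-like cells had 4 of 8, all lower, against 25.8% of all genes: RT1-Ba (-2.27), Cd74 (-2.07, 111 against 467 CPM), RT1-Da (-2.06) and RT1-DMa (-1.66). This class, too, lay in different clusters: at 4d 24h cluster 7 held 96.7% of the TOE cells but 9.62% of the TO cells, whereas cluster 0 held 1.92% and 85.5%. Cd74 was 108 against 238 CPM within cluster 7 and 201 against 491 CPM within cluster 0, and RT1-Da 18.4 against 33.8 CPM and 14.3 against 83.0 CPM. In cluster 0 the TOE values rested on 42 Cd74 and 3 RT1-Da UMIs. Monocyte-like cells had 5 of 8, all lower, against 17.7%: RT1-Da (-2.47, 41.8 against 232 CPM), RT1-Bb (-2.38), RT1-Db1 (-2.06), RT1-Ba (-2.04) and Cd74 (-1.74). In the same monocyte-like cells RT1-DMa was at 385 against 355 CPM (0.12) and RT1-DMb at 192 against 147 CPM (0.39). Conventional DC-like cells had 1 of 8, RT1-Da (-1.01), against 11.8%, and macrophage-like cells 1 of the 6 with at least 50 UMIs, RT1-DMa (1.29), against 16.4%.

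At 4 h the differences were fewer. RT1-Bb was past 2-fold in most classes at 4d 4h only, and these classes came from the same pair of libraries. TOE 4d 4h had the highest RT1-Bb CPM in 7 of the 16 classes with at least 20 cells in all 8 libraries, and the lowest in 1. At 4d 4h RT1-Bb was higher in TOE in macrophage-like (88.1 against 5.90 CPM, log2 ratio 3.90, 3.34 to 4.51), monocyte-like (19.1 against 3.64 CPM, 2.39), conventional DC-like (265 against 53.5 CPM, 2.31) and immature/mature B-like cells (79.0 against 28.7 CPM, 1.46). In small pre-B-like cells it was 2.10 against 1.42 CPM (0.56, -0.30 to 1.46). The members past 2-fold at 4d 4h were 1 of 8 in macrophage-like (3.06% of all genes), 1 of 8 in monocyte-like (4.05%), 1 of 8 in immature/mature B-like (1.70%), 2 of 8 in conventional DC-like (RT1-Bb, and Ciita at -1.09, with 3.06% of all genes) and 2 of 7 in small pre-B-like cells (RT1-DMa at 1.43 and RT1-DMb at 1.15, with 1.86%). At 2d 4h RT1-Bb was at 28.4 CPM in TOE against 47.9 CPM in TO in immature/mature B-like and 7.40 against 9.84 CPM in macrophage-like cells. In small pre-B-like cells it was 0.759 against 1.67 CPM (log2 ratio -1.14, -2.21 to -0.12) on 14 and 23 UMIs, under the minimum of 50 for a count. The members past 2-fold at 2d 4h were 1 of 6 in macrophage-like (RT1-Db1 at 1.04, with 4.29% of all genes), 1 of 8 in monocyte-like (Ciita at 1.00, with 6.58%), 0 of 8 in immature/mature B-like (8.47%), 0 of 6 in small pre-B-like (10.4%) and 0 of 8 in conventional DC-like cells (5.43%).

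**Figure D5:**
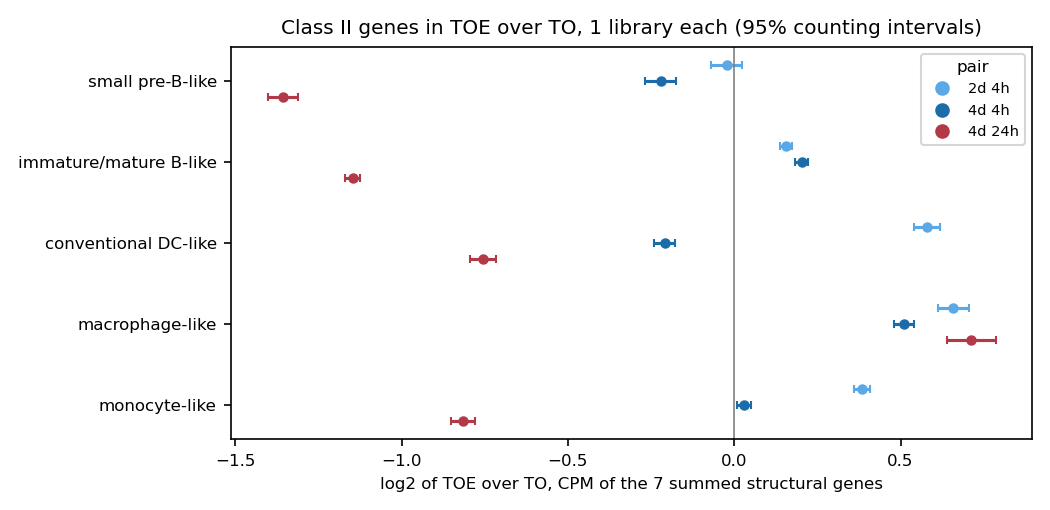
The 7 structural class II genes summed, TOE over TO, in 5 cell classes. The horizontal axis is the log2 ratio of CPM between 1 TOE and 1 TO library, points are the 2d 4h, 4d 4h and 4d 24h pairs, and bars are exact 95% intervals for counting error. The 4d 24h points lie between -1.36 and -0.76 in every class but macrophage-like cells, where the point is 0.71.

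Taking libraries as samples, the summed level was compared by arm, day and hour in 5 classes, with 4 libraries against 4. None of the 15 exact two-sided permutation tests reached an adjusted p under 0.05, the adjusted values running from 0.796 to 0.886. The smallest p that 4 against 4 allows is 0.0286, and a single test at that value would not pass the adjustment over 15 tests. The lack of a call therefore does not show that the levels were alike. The lowest p was that of macrophage-like cells, where TOE libraries averaged 12.04 ± 0.42 and TO libraries 11.60 ± 0.14 (SD, n = 4, log2 CPM), a difference of 0.44 (exact p = 0.114, adjusted p = 0.796). By hour, immature/mature B-like cells differed by -0.29 and small pre-B-like cells by -0.34 at 4 h (exact p = 0.314 for each, adjusted p = 0.796). The small pre-B-like difference turned to 0.23 with doublets kept. Arms mix days and hours in these tests, and the 4 libraries of a group were not replicates of 1 condition.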

How the data were processed

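The authors sequenced 10x Genomics 3′ libraries from 9 conditions and deposited raw UMI counts per gene and cell, made with Cell Ranger 9.0.0, of which those of 8 were analysed here. The submitters' notes list mRatBN7.2 and GRCh38 with no role, Seurat and R 4.0.3. Quality thresholds were not given in the sources used here. From the deposited counts, barcodes under 200 genes or over 20% mitochondrial UMIs were dropped, and barcodes with a Scrublet score above 0.25 (expected rate 0.08) were removed. Cells were clustered with scanpy 1.11.5 (2000 variable genes without class II genes, 30 components, 15 neighbours, Leiden resolution 1) and named from marker genes. Counts were summed per class and library with at least 20 cells. Classes were compared with edgeR 4.0.16 (quasi-likelihood test, R 4.3.3, TMM, library as block, Benjamini-Hochberg adjustment over all genes tested; DESeq2 1.42.0 was an alternative), with a call at an adjusted p of 0.05 and a log2 change of 1. Neighbours in a gene's order were compared with an exact sign-flip permutation test over libraries, adjusted over the neighbours of each gene separately. Log2 values in it carried a prior of 0.5 UMIs. The library block pairs classes of the same library. The script was tested on simulated counts. The members and the gene lists were chosen with earlier results of these data known. Genes named from the lists were the 3 with the largest changes among those called. Nothing states which rat or how many entered a library, so p-values measure the spread between libraries.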

Additional observations from a re-analysis of the deposited data

Results flagged for a closer look

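Of 61 sets of library values tested on the log2 scale for a library far from the others, 2 stood out, where chance gives about 3 (5% of sets). Cd74 in immature/mature B-like cells was 2651 CPM in TOE 4d 24h, below the 3910 to 4961 CPM of the other 7 libraries. RT1-Da in macrophage-like cells was 1350 CPM in TOE 4d 24h, above the 455 to 761 CPM of the others, and rested on 25 cells. The summed level of the structural genes went up from TO to TOE in macrophage-like cells in 3 of 3 pairs, and the log2 ratio was below 0 in small pre-B-like cells in 3 of 3 pairs, with mean log2 ratios that differed by 1.16. In small pre-B-like cells the 2d 4h ratio was -0.022 (-0.069 to 0.025), within counting error of 0, and the 4d 24h ratio was -1.36, or -0.50 with doublets kept. That difference was not tested, and the macrophage-like ratio at 4d 24h turned below 0 at Leiden resolutions 0.5 and 2.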

How the results depend on the processing

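The count of members called was within 1.5 times the reported one in every setting run. Leaving out each library gave 2 to 4 for small pre-B-like against pro-B-like cells (2 without TOE 4d 4h, 4 without TOE 2d 4h, and 2 with doublets kept, RT1-Bb being the member without a test in both counts of 2), 8 for immature/mature B-like against small pre-B-like, 5 for macrophage-like against monocyte-like, 7 to 8 for conventional against plasmacytoid DC-like and 4 to 5 for conventional DC-like against immature/mature B-like cells. Without the library block, which pairs classes of 1 library, the counts were 3, 8, 5, 7 and 4. Members that were not called changed sign between small pre-B-like and pro-B-like cells: RT1-DMa was 0.076 with no filter on low counts, RT1-DMb -0.023 without TMM, -0.059 with the stricter cell filter, -0.050 at Leiden resolution 2 and -0.090 to 0.17 without 1 library, and with class II genes kept or doublets kept RT1-Ba was -0.10 or -0.53 and RT1-DMb -0.18 or -0.30. At Leiden resolution 2, RT1-DMa (0.26) and RT1-DMb (0.28) were higher in macrophage-like than in monocyte-like cells, Ciita was called there (1.65), and the Cd74 median of macrophage-like cells was 2631 CPM. The causes were not tested.

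Log2 ratios of TOE over TO moved by more than counting error in many settings, given here in the order 2d 4h, 4d 4h, 4d 24h where all moved. With TMM factors they were 0.060, 0.16 and -1.35 in immature/mature B-like and 0.53, 0.58 and 0.59 in macrophage-like cells, 0.26, 0.075 and -1.03 in monocyte-like cells, -0.13 (2d 4h) and -1.58 (4d 24h) in small pre-B-like cells, and 0.44 (2d 4h) and -0.98 (4d 24h) in conventional DC-like cells. With class II genes kept among the variable genes they were 0.22 (4d 4h) and -1.12 (4d 24h) in immature/mature B-like, -1.12 (4d 24h) in small pre-B-like, 0.49 (2d 4h) and -0.14 (4d 4h) in conventional DC-like, 0.74, 0.56 and 0.21 in macrophage-like and 0.30, -0.088 and -0.66 in monocyte-like cells. With doublets kept they were -1.10 (4d 24h) in immature/mature B-like, -0.50 (4d 24h) in small pre-B-like, -0.41 (4d 4h) in conventional DC-like, 0.60 (4d 4h) and 0.21 (4d 24h) in macrophage-like and -0.021 (4d 4h) and -0.73 (4d 24h) in monocyte-like cells. With the stricter cell filter they were -1.03 (4d 24h) in immature/mature B-like, -1.17 (4d 24h) in small pre-B-like, 0.40, -0.43 and -0.85 in conventional DC-like, 0.74 (2d 4h) and 0.44 (4d 24h) in macrophage-like and 0.36 (2d 4h) and -0.87 (4d 24h) in monocyte-like cells. At Leiden resolution 0.5 they were 0.42 (2d 4h) and -0.47 (4d 24h) in conventional DC-like, 0.74 (2d 4h) and -0.036 (4d 24h) in macrophage-like and 0.36 (2d 4h) and -0.051 (4d 4h) in monocyte-like cells. At resolution 2 they were 0.12 (2d 4h) in immature/mature B-like, -0.13 (4d 4h) and -1.06 (4d 24h) in small pre-B-like, -0.89 (4d 24h) in conventional DC-like, 0.45, 0.17 and -0.21 in macrophage-like and 0.43, 0.29 and -0.69 in monocyte-like cells.

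Differences by arm, day and hour changed sign when 1 library was left out, an alternative chosen after seeing the data. Their ranges were -0.30 to 0.0047 (without TO 4d 24h) for TOE against TO and -0.28 to 0.10 for day 4 against day 2 in immature/mature B-like cells, -0.31 to 0.14 for the day in small pre-B-like cells, -0.28 to 0.076 for the arm and -0.33 to 0.029 for the day in conventional DC-like cells, and -0.19 to 0.16 for the hour in macrophage-like cells. With doublets kept, the day difference was 0.014 in immature/mature B-like cells and the hour difference 0.23 in small pre-B-like and 0.048 in macrophage-like cells. Depth limits RT1-Bb and Ciita most, which held 8632 and 5655 UMIs.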
